A study of Homo sapiens with 4 samples.

Results

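The Nodal signalling genes described here are 10 named members: the ligands NODAL and GDF3, the co-receptor TDGF1, the receptors ACVR1B, ACVR2A and ACVR2B, the secreted antagonists CER1, LEFTY1 and LEFTY2, and the transcription factor FOXH1. They were taken by symbol from a table of 57905 gene identifiers, each matched 1 row, and all 10 passed the filter of a mean of at least 1 FPKM, which left 15320 tested genes. FPKM are sequenced fragments scaled to gene length and to the fragments of the library, so levels can be compared between genes. Polyadenylated RNA was sequenced from cells labelled MG63, a human osteosarcoma line, which had been transfected with a control siRNA or an siRNA against KLF11, a zinc finger transcription factor. Both groups were harvested 48 hours later, and each holds 2 libraries. No further allele or agent is given for either group, and the labels do not say whether the replicates were separate cultures, so the spread between them may be technical. The members were chosen with results of this same comparison known, so their values are given as a description, without p-values.

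Nodal is a secreted factor of the TGF-beta family that patterns the early embryo, where it specifies mesoderm and endoderm and later the left side of the body. It binds a complex of the type I receptor ACVR1B and the type II receptors ACVR2A or ACVR2B, with the membrane-anchored protein Cripto, encoded by TDGF1, as a co-receptor. The receptors phosphorylate SMAD2 and SMAD3, which enter the nucleus with SMAD4 and are brought to target genes by FOXH1. Lefty proteins and Cerberus, the product of CER1, are secreted antagonists, and the genes for NODAL and the Lefty proteins are themselves well-known targets of the pathway. The same genes are active in pluripotent stem cells and in embryonal carcinoma.

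The libraries held transcripts that go against the cell label, beside others known from bone and mesenchymal cells. Of 14 osteosarcoma and mesenchymal markers, RUNX2, the master factor of osteoblasts, measured 0.03 and 0.02 FPKM in the controls against 0.60 and 0.65 FPKM after knockdown. COL3A1 was at 0.01 FPKM in control replicate 1 and listed at 0 in control replicate 2, and PRRX1 was listed at 0 in both. VIM, in contrast, reached 144 and 131 FPKM in the controls and 808 and 800 FPKM after knockdown. Other members of that list were abundant in the controls: SPARC at 656.9 and 637.4 FPKM, COL1A2 at 133.3 and 126.1 FPKM, ALPL at 100.8 and 88.95 FPKM and COL1A1 at 23.3 and 22.3 FPKM. The mesenchymal list summed to 1016 to 1073 FPKM in control and 1878 to 1888 FPKM in KLF11 siRNA libraries, with 4 of 8 tested markers higher and 1 lower. Counts of markers called higher or lower are from limma, where 13.5% of all tested genes passed as higher and 21.7% as lower. All 12 markers of pluripotent and embryonal carcinoma cells were in the table, and 11 passed the filter. Their summed level ran from 1055 to 1083 FPKM in control and from 2037 to 2558 FPKM in KLF11 siRNA libraries. Of these markers 8 were higher, 2 lower (LIN28A and SALL4) and 1 not past the test. POU5F1 alone measured 186 and 177 FPKM in the controls against 1364 and 1068 FPKM after knockdown. For 9 definitive endoderm markers the sum ran from 728 to 729 FPKM in control and from 338 to 459 FPKM in KLF11 siRNA libraries, with 1 of 8 tested markers higher, 6 lower and 1 not past the test. The 7 yolk sac endoderm markers summed to 174 to 179.6 FPKM in control and 32.5 to 64.0 FPKM in KLF11 siRNA libraries. Of 4 tested, 1 was higher (AFP) and 2 were lower (SOX17 and APOA2). SOX17 stands on both endoderm lists, so their sums are not independent. It measured 133 and 131 FPKM in the controls against 19.2 and 47.9 FPKM after knockdown. AFP was listed at 0 in both controls and at 4.41 and 1.11 FPKM after knockdown. TTR, another yolk sac endoderm marker, was listed at 0 in every library, as were the trophoblast marker CGA and the T cell marker CD3E. The sums of 6 trophoblast markers were 18.3 to 21.5 and 3.82 to 4.30 FPKM (1 tested, which fell), those of 5 endothelial markers 18.97 to 21.15 and 14.75 to 20.25 FPKM (3 tested, 1 higher and 1 lower), and those of 5 leukocyte markers at most 0.50 FPKM, with none tested. The part of a change in cell make-up in the results below was not tested, and in bulk RNA fewer cells of a type and less RNA per cell cannot be told apart. KLF11, the siRNA target, measured 12.3 and 12.4 FPKM in the controls against 5.49 and 6.74 FPKM after knockdown (log2 change -0.92, SE 0.139, adjusted p = 0.00951, limma).

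Regulatory sequence upstream of the members is shown first, because the pathway acts on several of its own genes. Promoters from RefSeq (GRCh38.p14, a later build than that of the expression table) were found for 7 of the 10 members, in 9 windows of 250 bases ending just before the annotated start, and not for LEFTY1, LEFTY2 and FOXH1. Each was searched on both strands for TGTNNATT, a general form of the FOXH1 site, for GTCTAGAC and CAGAC, bound by SMAD proteins, and for GGGCGG and CACCC, bound by SP and KLF factors. The 3 windows below belong to the antagonist CER1 and to both ligands, and capitals mark every match, written 5′ to 3′ on the gene's strand.
CER1, chr9:14722734-14722983, minus strand: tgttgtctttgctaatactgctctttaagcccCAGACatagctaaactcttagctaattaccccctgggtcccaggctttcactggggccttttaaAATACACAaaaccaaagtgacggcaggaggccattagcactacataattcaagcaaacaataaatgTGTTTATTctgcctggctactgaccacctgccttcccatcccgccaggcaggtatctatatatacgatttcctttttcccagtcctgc
NODAL, chr10:70441682-70441931, minus strand: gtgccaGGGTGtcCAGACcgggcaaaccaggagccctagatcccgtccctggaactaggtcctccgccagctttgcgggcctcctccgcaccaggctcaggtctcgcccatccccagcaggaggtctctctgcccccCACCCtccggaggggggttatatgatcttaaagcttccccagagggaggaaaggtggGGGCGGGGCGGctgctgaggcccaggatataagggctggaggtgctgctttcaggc
GDF3, chr12:7695776-7696025, minus strand: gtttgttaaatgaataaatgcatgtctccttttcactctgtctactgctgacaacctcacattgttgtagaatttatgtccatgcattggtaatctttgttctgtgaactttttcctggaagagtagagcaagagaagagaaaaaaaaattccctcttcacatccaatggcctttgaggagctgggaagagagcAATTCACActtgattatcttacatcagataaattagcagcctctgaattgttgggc

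CER1 held 2 matches to TGTNNATT, at bases 154 to 147 and 88 to 81 before the start, and 1 CAGAC at bases 218 to 214, with no GGGCGG or CACCC. GDF3 held 1 match to TGTNNATT, at bases 56 to 49 before the start, and none of the other motifs. In NODAL there were 2 matches to GGGCGG that share a base, at 56 to 51 and 51 to 46 bases before the start, 2 to CACCC and 1 to CAGAC, and none to TGTNNATT. Over all 35116 promoter windows searched, 9.88% held TGTNNATT, 0.182% GTCTAGAC, 38.0% CAGAC, 42.6% GGGCGG and 54.7% CACCC. Base composition differed as well, with 45.2% G and C in CER1, 65.2% in NODAL and 38.4% in GDF3 against a median of 58% over all windows. The windows not shown held matches as well. ACVR2B held 5 to GGGCGG, more than NODAL. ACVR1B held 3 to GGGCGG and 1 to CACCC before 1 start, and 1 to CAGAC before another. TDGF1 held 1 to GGGCGG and 1 to CACCC before 1 start, and 2 to GGGCGG before another. ACVR2A held none of the motifs. A match is a description of the letters and shows no binding. Sequence outside these windows was not searched, so an absent motif holds for the window only.

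In the control libraries CER1 stood far above the other members, and the order of levels ran from CER1 through TDGF1, LEFTY1, LEFTY2, NODAL, FOXH1, ACVR2B, ACVR1B and GDF3 to ACVR2A. CER1 ranked 7th of all tested genes by control mean, TDGF1 131st, LEFTY1 382nd and LEFTY2 465th. NODAL, ranked 932nd, lay within the range of FOXH1, ranked 956th, in the controls, and these were the only neighbours in that order whose control libraries overlapped. After knockdown NODAL lay above both Lefty genes in each library. GDF3 lay above ACVR1B and ACVR2B in each knockdown library, while its range overlapped those of FOXH1, LEFTY1 and LEFTY2.

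**Figure D1:**
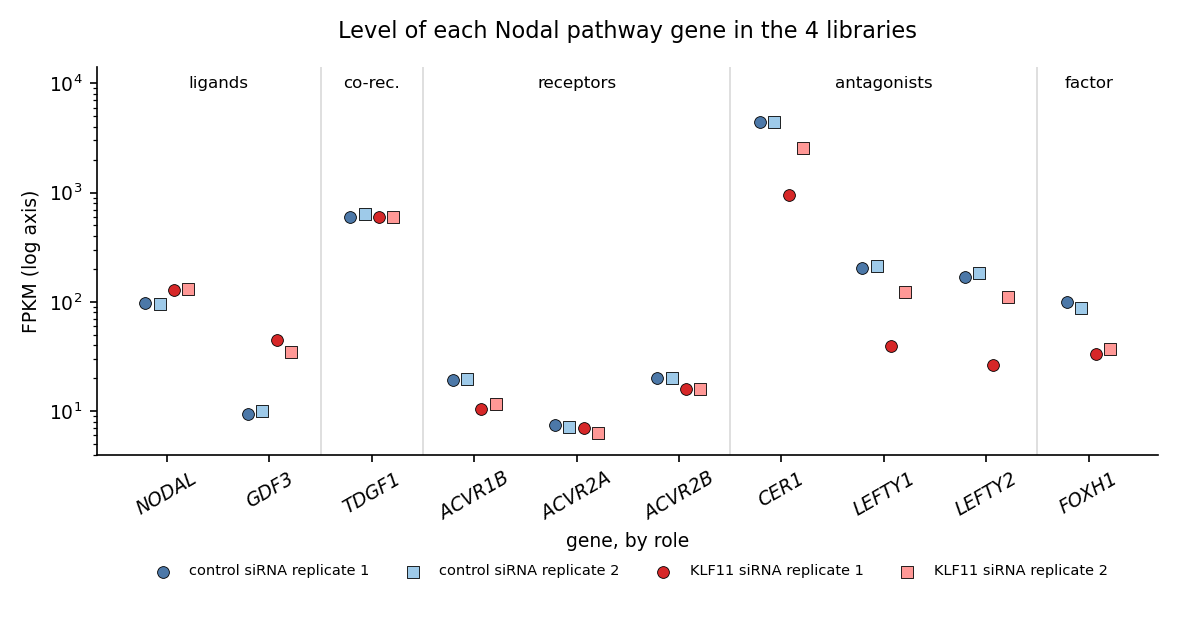
FPKM of the 10 genes on a log axis, grouped by role, with 1 point per library (circles replicate 1, squares replicate 2; blue control siRNA, red KLF11 siRNA). CER1 lies at 4430.3 and 4406 FPKM in control libraries, and the KLF11 siRNA points of CER1, LEFTY1 and LEFTY2 lie far apart from each other.

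For no member did control and knockdown values overlap. In 8 members both KLF11 siRNA libraries were lower than both controls, which held for 44.5% of all tested genes, and in 2 members both were higher, which held for 28.9%. By limma 2 members, NODAL and GDF3, passed as higher (13.5% of tested genes passed in that direction) and 2, ACVR1B and FOXH1, as lower (21.7% of tested genes), 4 in all beside 35.2% of tested genes in either direction. Because this contrast chose the members, nothing is read from these counts. Their median log2 difference was -0.54, beside -0.11 for all tested genes.

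The ligands were both higher with KLF11 siRNA. NODAL measured 97.2 and 94.7 FPKM in the controls against 129 and 131 FPKM after knockdown, a mean 1.35 times the control mean (96.0 ± 1.73 against 130.0 ± 1.36 FPKM, SD, n = 2 each). Its replicates lay close together in each group, and the means were apart by 34.0 FPKM. GDF3, a relative of Nodal known from pluripotent and embryonal carcinoma cells, measured 9.34 and 9.94 FPKM in the controls against 45.1 and 34.8 FPKM after knockdown. The mean was 4.15 times the control mean (9.64 ± 0.424 against 40.0 ± 7.28 FPKM), the largest fold between group means among the 10 members. On the log2(FPKM + 1) scale the differences were 0.43 (SE 0.0768) for NODAL and 1.93 (SE 0.148) for GDF3, and 2.75% of tested genes differed by as much as GDF3 in either direction.

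The co-receptor transcript TDGF1 had group means close to each other in the values as deposited. It measured 603 and 631 FPKM in the controls against 595 and 592 FPKM after knockdown. The group means were 617 ± 20.0 and 594 ± 2.18 FPKM, and both knockdown libraries lay just under the lower control. Its log2 difference of -0.05 (SE 0.0857) turned to 0.08 with median-of-ratios scaling, and was -0.27 with quantile normalization, where TDGF1 passed as lower. Because this contrast chose the members, that call is a description. TDGF1P3, a transcribed copy of TDGF1, measured 49.2 and 46.2 FPKM in the controls against 50.7 and 46.8 FPKM after knockdown. In the GENCODE 29 transcripts 1003 of 2464 windows of 50 bases in TDGF1 (40.7%) occurred unchanged in TDGF1P3, so how reads were split between the 2 is uncertain. TDGF1 was 11.7 to 13.7 times TDGF1P3 in the 4 libraries.

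Among the receptors ACVR1B differed most. This type I receptor, through which Nodal and activin both signal, measured 19.4 and 19.7 FPKM in the controls against 10.4 and 11.5 FPKM after knockdown, 0.562 of the control mean. ACVR2B measured 19.9 and 20.1 FPKM in the controls against 16.1 and 16.0 FPKM after knockdown, a mean of 0.803 of control with replicates that differed by less than 1% of their mean. ACVR2A, the other type II receptor, was at 7.47 and 7.10 FPKM against 7.04 and 6.26 FPKM, so the nearest libraries of the groups were almost equal. The log2 difference was -0.78 (SE 0.108) for ACVR1B, -0.30 (SE 0.0947) for ACVR2B and -0.12 (SE 0.132) for ACVR2A, and that of ACVR2A turned to 0.04 with quantile normalization. ACVR2B, which did not pass, passed as lower with TPM (-0.35). Because this contrast chose the members, these calls are a description. Summed over the 3 receptors, the level was 46.7 and 46.8 FPKM in the controls against 33.5 and 33.8 FPKM after knockdown. The ratio of ACVR2B to ACVR2A lay between 2.28 and 2.82 in all 4 libraries.

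The 3 antagonists were lower in both KLF11 siRNA libraries, and by very unequal amounts. CER1 was at 4430.3 and 4406 FPKM in control, at 958 FPKM in KLF11 siRNA replicate 1 and at 2574 FPKM in replicate 2. Replicate 1 was thus 4.61-fold and replicate 2 1.72-fold under the control mean, and the group means were 4418 ± 17.1 and 1766 ± 1143 FPKM. The SD in the KLF11 siRNA pair was large beside the mean, whereas the controls differed by 0.548% of theirs.

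LEFTY1 and LEFTY2 followed the same order of libraries. LEFTY1 was at 204 and 212 FPKM in control and at 39.3 and 123 FPKM in KLF11 siRNA replicates 1 and 2, 5.29-fold and 1.69-fold under the control mean. LEFTY2 was at 169.8 and 183 FPKM in control and at 26.3 and 110.5 FPKM, 6.69-fold and 1.59-fold under it. In each of these genes replicate 1 was the lowest library, replicate 2 lay between it and the controls, and the groups did not overlap. LEFTY1 and LEFTY2 are close paralogs, and 493 of 1577 windows of 50 bases in LEFTY1 (31.3%) and the same 493 of 2238 in LEFTY2 (22.0%) were shared, so the level of each is uncertain. The ratio of LEFTY1 to LEFTY2 was 1.202 and 1.159 in the controls and 1.492 and 1.113 after knockdown, and their sum was 374 and 394 FPKM against 65.7 and 233 FPKM.

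The fitted log2 difference was -1.49 (SE 0.452) for CER1, -1.56 (SE 0.506) for LEFTY1 and -1.68 (SE 0.631) for LEFTY2, and none of the 3 passed the limma threshold. All 3 passed as lower with the replicate block, and CER1 also with TPM, with quantile normalization and with the filter of 5 FPKM. Because this contrast chose the members, these calls are a description as well. With a KLF11 siRNA library left out the spread rests on the control pair alone, so only the differences are given for those fits. Without KLF11 siRNA replicate 1 the differences were -0.78, -0.75 and -0.67, and without replicate 2 they were -2.20, -2.37 and -2.69. The size of each thus rests on which of the KLF11 siRNA libraries is used, while its sign does not.

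**Figure D2:**
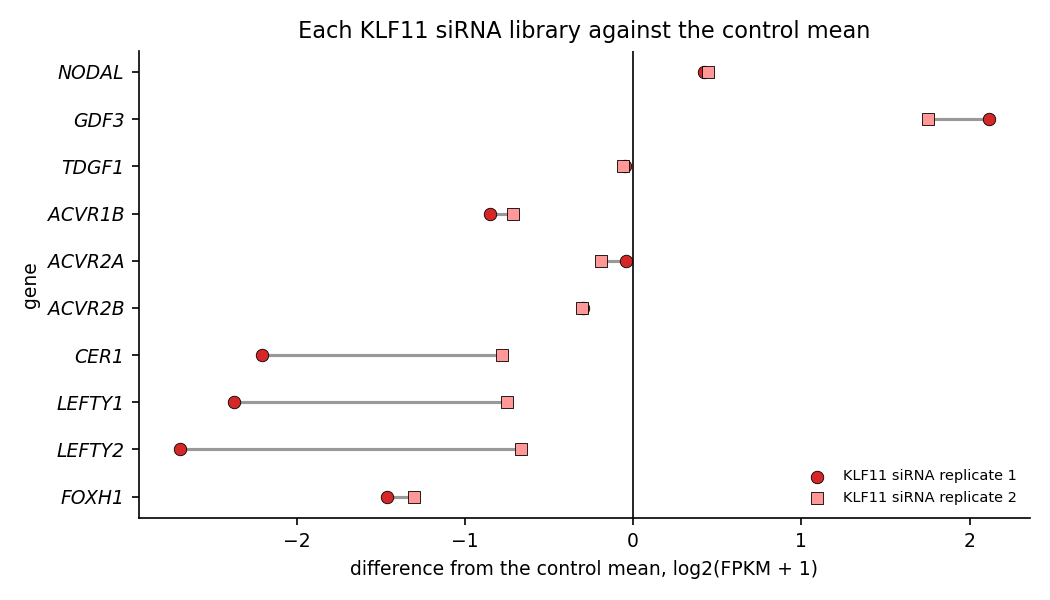
Difference of each KLF11 siRNA library from the control mean on the log2(FPKM + 1) scale for the 10 genes (circles replicate 1, squares replicate 2, joined by a line). The lines are long for CER1, LEFTY1 and LEFTY2, where replicate 1 lies at -2.20, -2.37 and -2.69 and replicate 2 at -0.78, -0.75 and -0.67, and short for the other 7 genes.

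FOXH1, the forkhead factor that brings SMAD complexes to Nodal target genes, measured 98.9 and 87.5 FPKM in the controls against 33.15 and 37.1 FPKM after knockdown. Both KLF11 siRNA libraries were far under both controls, and the mean was 0.377 of the control mean (93.2 ± 8.08 against 35.1 ± 2.76 FPKM). Its log2 difference of -1.38 (SE 0.107) was near those of the antagonists in size, yet the KLF11 siRNA libraries differed by 0.16 on the log2 scale, against 1.42 for CER1. The difference was at least as large in 6.93% of tested genes, in either direction.

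The gap between the KLF11 siRNA libraries sorted the members. In CER1, LEFTY1 and LEFTY2 replicate 1 was lower than replicate 2 by 1.42, 1.62 and 2.03 on the log2 scale. A gap of at least the size of CER1's was found in 1.33% of tested genes, of LEFTY1's in 0.953% and of LEFTY2's in 0.522%. The other 7 members had gaps of at most 0.36, that of GDF3, and those of TDGF1, ACVR2B and NODAL were 0.01, 0.00 and 0.02 in size. The median gap was 0.15 over the members and 0.18 over all tested genes, and between the controls it was 0.12 over all tested genes. Replicate 1 lay farther from the controls in general: it was the lower library in 79% of genes called lower and the higher one in 79.1% of genes called higher. KLF11 itself was lower in replicate 1 than in replicate 2, at 5.49 against 6.74 FPKM.

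**Figure D3:**
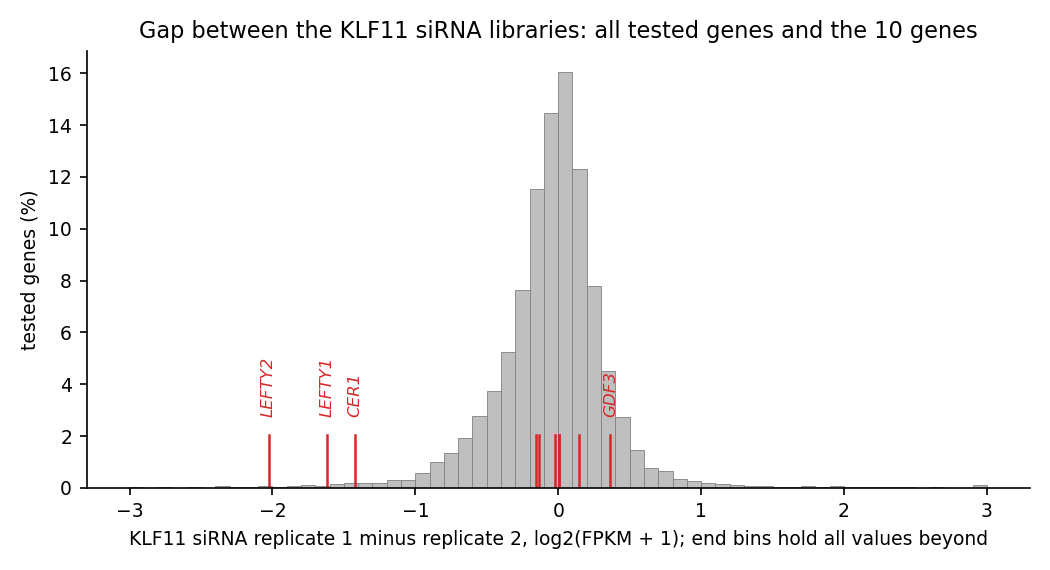
Percent of the 15320 tested genes by the difference of KLF11 siRNA replicate 1 from replicate 2 on the log2(FPKM + 1) scale, in bins of 0.1, with the end bins holding all values beyond 3 in either direction. Red ticks are the 10 genes: LEFTY2, LEFTY1 and CER1 lie at -2.03, -1.62 and -1.42, in the sparse left tail, and the others lie within the bulk.

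Within each library the antagonists can be set against their ligand. CER1 was 45.6 and 46.5 times NODAL in the control libraries and 7.43 and 19.7 times in KLF11 siRNA replicates 1 and 2. The Lefty sum was 3.85 and 4.16 times NODAL in control, and 0.509 and 1.78 times in KLF11 siRNA libraries, so it was under NODAL in replicate 1 only. TDGF1 went from 6.20 and 6.66 to 4.61 and 4.52 times NODAL, and GDF3 from 0.0961 and 0.105 to 0.350 and 0.266 times NODAL. A ratio within a library is free of the scaling between libraries, and for all 4 ratios the groups did not overlap. For CER1, TDGF1 and the Lefty sum this follows from the values above, with NODAL higher and these lower in both KLF11 siRNA libraries. It is therefore no separate result.

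**Figure D4:**
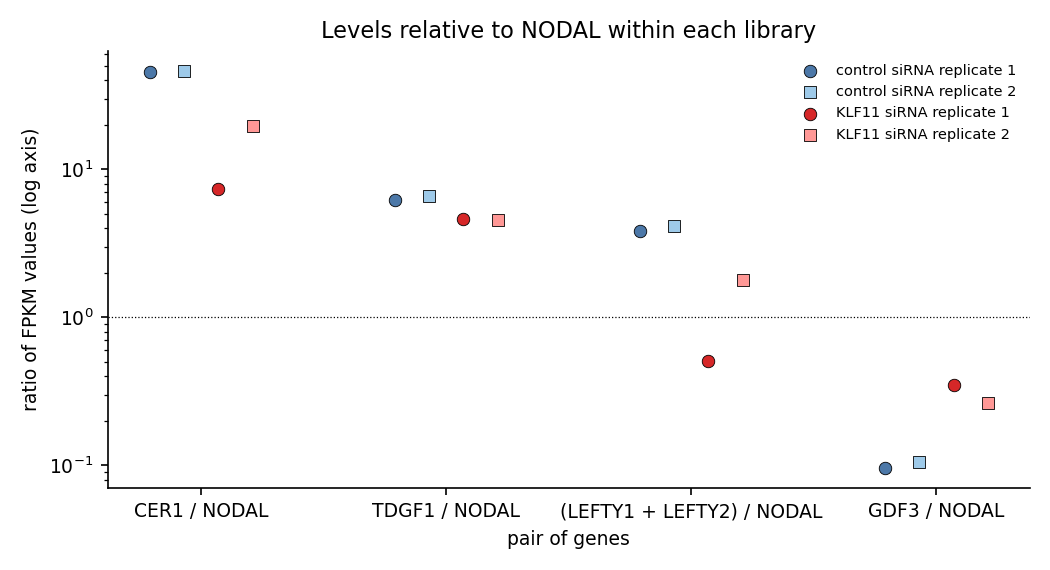
Ratio of FPKM values to NODAL in each library on a log axis, for CER1, TDGF1, the sum of LEFTY1 and LEFTY2, and GDF3 (circles replicate 1, squares replicate 2; blue control siRNA, red KLF11 siRNA; the dotted line marks a ratio of 1). The Lefty sum lies at 3.85 and 4.16 in control and at 0.509 and 1.78 in KLF11 siRNA libraries.

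Genes outside the member list with the most similar profile were named by the smallest root mean square difference of log2(FPKM + 1) over the 4 libraries, after the control mean of each gene was subtracted. For CER1 they were SLCO2A1, COL6A4P2, TDRD7, KIFC2 and PPP1R14A, with differences from 0.0604 to 0.116. SLCO2A1, a prostaglandin transporter, measured 9.71 and 9.51 FPKM in the controls against 1.39 and 5.66 FPKM after knockdown. For LEFTY1 they were CST1, COL6A4P2, SLCO2A1, TDRD7 and RFPL2, with differences from 0.0689 to 0.160, and 3 of these 5 also stood on the list for CER1. For NODAL they were VMP1, MYO5C, SCD, SNHG15 and CNOT9, at 0.00548 to 0.0164, and SCD, a fatty acid desaturase, went from 186 and 186 to 253 and 252 FPKM. These profiles rest on 4 libraries in 2 groups.

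Other genes of the pathway, 62 in 5 lists that leave out the members, were tested with limma over all genes. The pathway and marker lists were chosen with earlier results of these data known, so their counts and p-values are a description. LHX1 was not analysed here, and 53 of the other 61 passed the filter. Of these, 8 rose, 18 fell and 27 did not pass, beside 13.5% and 21.7% of all tested genes that rose and fell. Their median log2 change was -0.16, against -0.11 over all tested genes. Most of the calls, 5 rises and 9 falls, belonged to the list of target genes.

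Other ligands were measured at low to moderate levels. INHBA and INHBB, which encode activin subunits, were under the filter, with at most 0.21 and 0.05 FPKM in any library. GDF1, a partner of Nodal, measured 3.89 and 2.59 FPKM in the controls against 0.88 and 1.58 FPKM after knockdown (log2 change -0.93, adjusted p = 0.0439). GDF11 fell from 12.1 and 9.81 to 4.37 and 5.71 FPKM (adjusted p = 0.0144). Of the convertases that can cleave such precursors, PCSK5 rose from 1.94 and 1.64 to 4.16 and 4.07 FPKM (adjusted p = 0.0158). FURIN, with 35.8 and 33.0 FPKM in the controls against 26.7 and 28.3 FPKM after knockdown, and PCSK6 did not pass (adjusted p = 0.057 and 0.726).

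No receptor outside the member list passed in limma: 0 of 4 tested genes rose and 0 fell, beside 13.5% and 21.7% of all tested genes. At an unadjusted p under 0.05 the counts were 0 and 1. No share over all tested genes is given for that threshold, so nothing is read from them. The 4 genes were ACVR1, TGFBR1, TGFBR2 and TGFBR3, with adjusted p-values of 0.0964, 0.264, 0.402 and 0.238. ACVR1C, an alternative type I receptor for Nodal, was at most at 0.23 FPKM, CFC1, a relative of TDGF1, measured 1.23 and 0.78 FPKM in the controls against 0.11 and 0.40 FPKM after knockdown, and CFC1B was listed at 0 in every library.

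Of 11 SMADs and nuclear partners 0 rose in limma and 4 fell, beside 13.5% and 21.7% of all tested genes. At an unadjusted p under 0.05, for which no share over all tested genes is given, 2 were higher and 5 lower. Without that share nothing is read from these 2 counts. SMAD2 dropped from 52.0 and 51.3 to 33.7 and 34.2 FPKM (log2 change -0.59, SE 0.0817, adjusted p = 0.00786), with replicates almost equal in each group. SMAD3 measured 12.6 and 11.2 FPKM in the controls against 7.88 and 8.48 FPKM after knockdown (adjusted p = 0.0332). SMAD4, the shared partner, named after its values were seen, did not pass, with 47.7 and 50.8 FPKM in the controls against 43.7 and 44.3 FPKM after knockdown (adjusted p = 0.201). TGIF2, a corepressor of SMADs, fell from 36.2 and 36.3 to 18.8 and 23.5 FPKM, and DRAP1, a corepressor that can bind FOXH1, from 68.8 and 59.3 to 43.1 and 50.8 FPKM (adjusted p = 0.0124 and 0.0452).

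Among antagonists and dampers other than the members, 2 of 17 tested genes were higher and 3 lower, beside 13.5% and 21.7% of all tested genes. Nothing is read from these counts. TMEFF1, a membrane protein that binds Cripto, fell from 73.4 and 82.4 to 50.04 and 45.9 FPKM (adjusted p = 0.00884), and FSTL3, a follistatin relative that binds activin, from 6.42 and 6.36 to 2.97 and 2.92 FPKM (adjusted p = 0.00989). DACT2, which acts on the turnover of Nodal receptors, fell from 6.11 and 5.70 to 0.25 and 2.08 FPKM (adjusted p = 0.0289), with replicate 1 the lower library as in CER1. BAMBI, a decoy receptor, rose from 20.2 and 18.7 to 36.5 and 30.8 FPKM, and NCLN, a partner of the NOMO proteins, from 32.87 and 31.99 to 44.7 and 40.9 FPKM (adjusted p = 0.0104 and 0.0286). FST, which encodes follistatin and was also named after its values were seen, measured 155 and 158 FPKM in the controls against 211 and 113 FPKM after knockdown, which lay on either side of the controls.

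**Figure D5:**
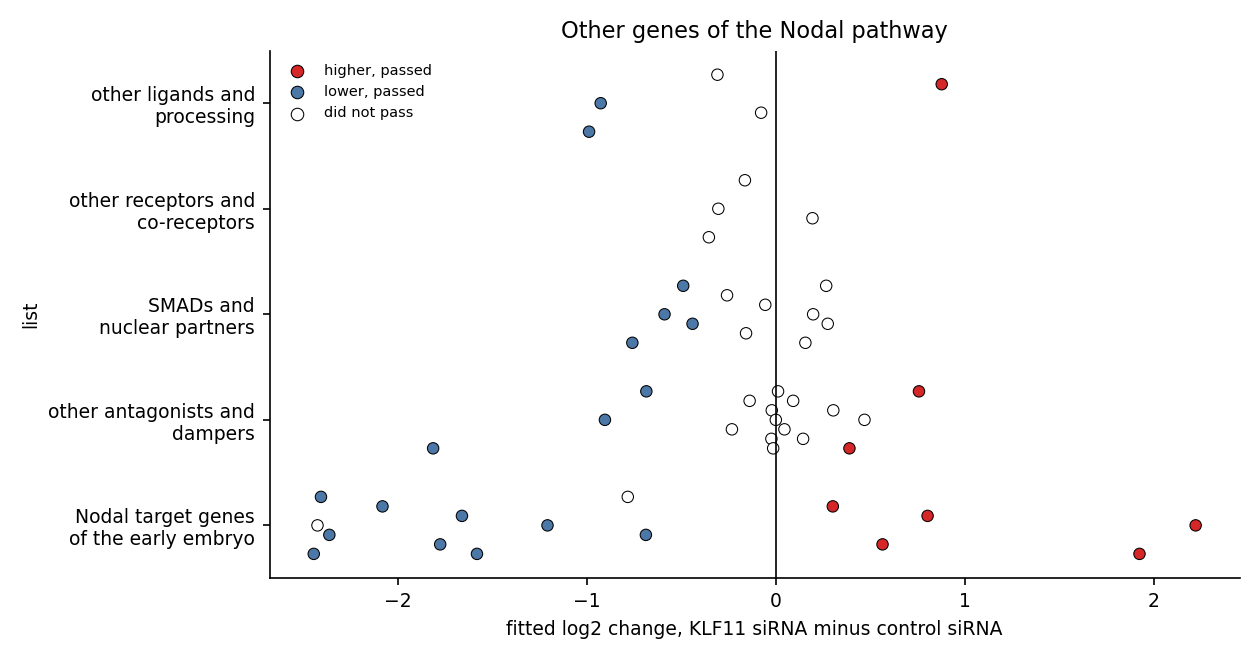
Fitted log2 change (KLF11 siRNA minus control siRNA) of the 53 tested genes of 5 pathway lists, 1 point per gene, red for those that passed as higher, blue as lower and white for those that did not pass. The target genes spread widest, from -2.45 to 2.22, with 5 red and 9 blue points.

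Target genes of Nodal in the early embryo went both ways. Of 16 tested genes 5 rose, 9 fell and 2 did not pass, beside 13.5% and 21.7% of all tested genes that rose and fell. On the list of definitive endoderm markers stand 7 of the 16 as well. TBXT, a mesoderm factor of the primitive streak, rose from 4.04 and 2.98 to 17.1 and 23.0 FPKM (log2 change 2.22, SE 0.200, adjusted p = 0.00364), and WNT3, a ligand active in the streak, from 14.8 and 13.2 to 25.03 and 25.33 FPKM (adjusted p = 0.00692). EOMES and MIXL1, further streak factors, rose 1.233-fold and 1.495-fold (adjusted p = 0.0372 and 0.0455), and NANOG, a pluripotency factor, rose 4.01-fold (adjusted p = 0.00665).

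Among the falls, FGF17, a growth factor named after its values were seen, as were the other 7 that follow, fell from 604 and 577 to 64.5 and 200.6 FPKM (adjusted p = 0.0219). The endoderm factors GATA4, FOXA2, SOX17, HHEX and GATA6 fell 5.25-, 5.26-, 3.94-, 3.57- and 2.99-fold by group means. OTX2, a head patterning factor, fell 2.91-fold and FGF8, a growth factor, 1.64-fold, with adjusted p-values from 0.00697 to 0.0288 for these 7. The sizes depended on the KLF11 siRNA library. GATA4 was at 12.2 FPKM in replicate 1 and 28.3 FPKM in replicate 2, under 108 and 104 FPKM in the controls. FOXA2 was at 4.65 and 12.8 FPKM, under 47.6 and 44.1 FPKM, and SOX17 at 19.2 and 47.9 FPKM, under 133 and 131 FPKM. HHEX was at 2.15 and 6.85 FPKM, under 15.85 and 16.2 FPKM, GATA6 at 18.2 and 42.1 FPKM, under 89.9 and 90.2 FPKM, and OTX2 at 34.1 and 61.8 FPKM, under 141 and 138 FPKM. For FGF8 the libraries lay close, at 19.01 and 19.58 FPKM, under 31.2 and 32.25 FPKM. On the log2 scale the change without replicate 1 and without replicate 2 was -1.87 and -3.02 for GATA4, -1.77 and -3.05 for FOXA2, -1.44 and -2.72 for SOX17, -1.12 and -2.44 for HHEX, -1.08 and -2.24 for GATA6, -1.16 and -2.001 for OTX2, and -1.55 and -3.17 for FGF17. CXCR4, with 66.3 and 69.8 FPKM in the controls against 4.25 and 30.4 FPKM after knockdown, and GSC, at 52.5 and 46.2 against 21.5 and 36.8 FPKM, did not pass (adjusted p = 0.0673 and 0.0625). In 15 of the 16 genes replicate 1 was lower than replicate 2, NANOG being the exception, beside 52.1% of all tested genes. Replicate 1 was the lower library in 79% of all genes called lower and the higher one in 79.1% of all genes called higher. EOMES, MIXL1, TBXT and WNT3 rose, yet replicate 1 was their lower library, nearer to the controls, though only slightly in WNT3 and EOMES.

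Among the 26 pathway genes called, 9 kept their call in every alternative that tested them with all 4 libraries and no block. Among them were SMAD2, TMEFF1, FSTL3, BAMBI, TBXT, FGF8, WNT3 and NANOG. FSTL3 lay under the filter of 5 FPKM and was not tested with it. The other 17 lost it at least with no filter on low values, and without control siRNA replicate 1 or 2 no pathway gene was called in limma, although 6 and 13 or 5 and 20 were higher and lower at an unadjusted p under 0.05. All 26 kept their sign in each of the 13 alternatives that tested them.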

How the data were processed

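RNA of 4 libraries was analysed, 2 per group, with groups and replicate numbers taken from the sample titles and columns matched by name. The authors deposited FPKM values with 2 decimals. The build was hg19 (GRCh37) and the tools listed are RSEM 1.3.1 and Trim Galore 0.5.0, per the submitters' processing notes. For aligner, annotation and strand setting, nothing is given in the sources used here. FPKM keep no read counts, so the depth is unknown and no counting interval can be given. The FPKM of a library summed to 577849 to 604498.

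Values were tested as log2(FPKM + 1), which understates changes of low genes, with limma 3.58.1 in R 4.3.3 (eBayes with trend, 2 groups, no block) for genes with a mean of at least 1 FPKM, Benjamini-Hochberg adjustment over all of them and a threshold of 0.05. The fit was checked on simulated data with few changed genes and independent noise of the same size in both groups. That check does not cover the wider gap of the KLF11 siRNA pair found here. An exact test of 2 against 2 libraries cannot go below p = 0.333 and was not used.

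The members and lists were chosen with earlier results of these data known. Named were the members, KLF11, up to 4 genes with the smallest p of each pathway list, genes behind counts of 5 or fewer, the 5 most similar genes of CER1, NODAL and LEFTY1, and checks of the cell label. SMAD4, FST and the target genes that fell and are named were chosen after their values were seen, and 1 gene that the rule names is not reported here. The symbol T was matched to TBXT through RefSeq synonyms. Alternatives were pseudocounts 0.1 and 5, no filter and a filter of 5 FPKM, TPM, median-of-ratios and quantile scaling, eBayes without trend, the replicate block and each library left out. Figures were drawn with matplotlib 3.10.9.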

Additional observations from a re-analysis of the deposited data

How the results depend on the processing

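All 10 members kept their sign in every alternative except TDGF1 (0.076 with median-of-ratios scaling) and ACVR2A (0.041 with quantile normalization). Median-of-ratios scaling shifted the median of all genes by 0.11 on the log2 scale. Relative to the median of all tested genes the differences were -1.38 for CER1, -1.45 for LEFTY1, -1.57 for LEFTY2, -1.27 for FOXH1, 0.54 for NODAL and 2.04 for GDF3. That scaling gave 2757 genes higher and 2605 lower (51.4% higher), against 2071 and 3329 (38.4% higher) with the values as deposited. With no filter 887 genes were higher and 1251 lower, and of the pathway genes 4 were higher and 5 lower, against 8 and 18. The fit without a trend left 5 pathway genes higher. With each library left out in turn, limma called 0 to 2291 genes higher and 0 to 3813 lower, and 0 to 9 pathway genes higher and 0 to 20 lower. The 0 came without control siRNA replicate 1 or 2, where the spread rests on the KLF11 siRNA pair, and there 1826 and 2635 or 1761 and 3032 genes were higher and lower at an unadjusted p under 0.05. KLF11 then lost its call (adjusted p = 0.116 and 0.113), with log2 changes from -1.04 to -0.79 over the fits that leave out a library. Where 1 library of a group is left, it is assumed to vary like the other group. PCSK6, not called with the settings of the report, changed sign, to 0.035 with median-of-ratios scaling and 0.082 with quantile normalization, and ran from -0.22 to 0.062 with a library left out. TDGF1P3 changed sign from 0.03, to -0.011 with TPM, and ran from -0.026 to 0.087 with a library left out, being -0.014 without control siRNA replicate 2.

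The labels share replicate numbers only. Deviations of same-numbered libraries from their group means correlated at -0.07 across genes, which are not independent, so the numbers were not taken as pairs. With the replicate block 1707 genes were higher and 2644 lower, and 6 and 16 pathway genes, with 21 of the 26 called genes still called. CER1, LEFTY1 and LEFTY2 passed as lower under it, which is a description, because this contrast chose the members. The cause of each change of call was not tested.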
